A study of Homo sapiens with 6 samples.

Results

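The L1 family of cell adhesion molecules is made up of 4 genes in human, L1CAM, CHL1, NRCAM and NFASC, and their transcripts were followed in RNA-seq libraries of human colorectal cancer cells. The 4 genes are all members of the family by name, out of 56638 gene symbols counted. The family was chosen by the fitted fold change of L1CAM in this contrast, the deepest fall among genes that averaged at least 10 CPM (read pairs scaled to library size), so the changes of its 4 genes are given as descriptions, without a p-value.

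The 6 libraries were made from total RNA of a colorectal cancer cell line. In 3 of them the cells had been transfected with a nonspecific control siRNA, and in 3 with siRNA against GLCC1, a long non-coding RNA that the labels call lncRNA-AF339830. The labels name the line SW480, whereas the study's methods name DLD-1 for the sequencing, and no allele or other agent is given for either condition. Each condition is 1 transfected line, and the labels do not say whether its 3 libraries came from separate cultures. All 6 genotype labels end in siRNA1, whichever the condition. The p-values below therefore measure the spread between these libraries, which may be technical. The titles, source names and genotypes give the conditions used here, but the library names carry AF123 for the control libraries and NC for the GLCC1 siRNA libraries, the opposite way round. If the library names were right, every direction below would turn, and "control siRNA" and "GLCC1 siRNA" stand for the libraries so labelled by title.

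L1 family proteins span the membrane once, with immunoglobulin-like and fibronectin type III domains outside the cell and a short cytoplasmic tail that binds ankyrin, the adaptor to the spectrin skeleton. They are best known from the nervous system, where they act in axon growth, myelination and the clustering of channels at the axon initial segment and the nodes of Ranvier. L1CAM is also known from carcinomas, where it has been described at the invasive front of colorectal tumours. Metalloproteases of the ADAM family shed its outer part, and gamma-secretase then cuts the membrane stub.

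The tail of the 4 proteins holds a short ankyrin-binding stretch, and its coding sequence is printed here because it is the feature that ties the family together. The bases are read 5′ to 3′ on the coding strand of hg19, the build of the files, and capitals mark the 15 bases of the site.
L1CAM, chrX:153128199-153128225, minus strand: ggttcgTTCATTGGCCAGTACagtggc
CHL1, chr3:447302-447328, plus strand: ggatcaTTTATTGGTGCCTACgctgga
NRCAM, chr7:107790436-107790462, minus strand: ggctccTTTATTGGACAATACagtggt
NFASC, chr1:204985560-204985586, plus strand: ggctccTTCATCGGCCAGTACacggtc
In the canonical transcript of each gene the site lies in the last exon, which is exon 29 in L1CAM, 28 in CHL1, 33 in NRCAM and 30 in NFASC. Of the 15 bases, NFASC differed from L1CAM at 1, NRCAM at 3 and CHL1 at 5.

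L1CAM (ENSG00000198910) occupies chrX:153126969-153151627 on the minus strand. Short alternative coding exons are a known feature of the gene, and a pair of them is shown because a count per gene symbol sums the forms with and without them. Exon 3 has 15 bases and stands in 2 of the 4 annotated transcripts with more than 20 exons, and exon 28 has 12 bases and stands in 1 of the 4. Capitals mark the whole exon.
Exon 3, chrX:153138683-153138697, minus strand: ATGAAGGACACCATG
Exon 28, chrX:153128823-153128834, minus strand: GTCCCTGGAGAG
The files do not separate these forms, so no value below belongs to any of them alone.

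L1CAM messenger RNA was abundant enough to measure in the control cells and nearly lost in the GLCC1 siRNA cells. The control siRNA libraries held 220, 395 and 323 read pairs of L1CAM, and the GLCC1 siRNA libraries held 13, 26 and 37. Scaled to library size with TMM factors (CPM), these were 15.1, 21.8 and 19.5 CPM against 0.678, 2.07 and 2.07 CPM. All 3 GLCC1 siRNA libraries lay below all 3 control libraries, and the lowest control library was 7.29 times the highest GLCC1 siRNA library. Over all 23074 genes tested, such a separation downwards was found for 24.0%.

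The mean L1CAM level was 18.8 ± 3.39 CPM (SD, n = 3) in control siRNA libraries and 1.61 ± 0.803 CPM (SD, n = 3) in GLCC1 siRNA libraries. The fitted log2 fold change was -3.60 (standard error 0.29), a 12.1-fold lower level, with a 95% interval from -4.18 to -3.02. In bulk RNA, fewer cells with L1CAM and less L1CAM per cell cannot be told apart. In the control siRNA libraries L1CAM stood above 61.9% of the genes tested, and in the GLCC1 siRNA libraries above 39.9%.

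The low L1CAM levels were not alike among the GLCC1 siRNA libraries. Replicate 1 held 13 read pairs, with a 95% exact Poisson interval from 6.92 to 22.2, which is 0.361 to 1.16 CPM. The intervals of replicates 2 and 3 were 1.35 to 3.03 CPM and 1.46 to 2.85 CPM. Replicate 1 thus lay below both others beyond counting error, and the highest of the 3 was 3.05 times the lowest, whereas this ratio was 1.44 in the control libraries. Without replicate 1 the log2 fold change was -3.18. These intervals cover counting error only, since read pairs are not independent molecules.

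**Figure D1:**
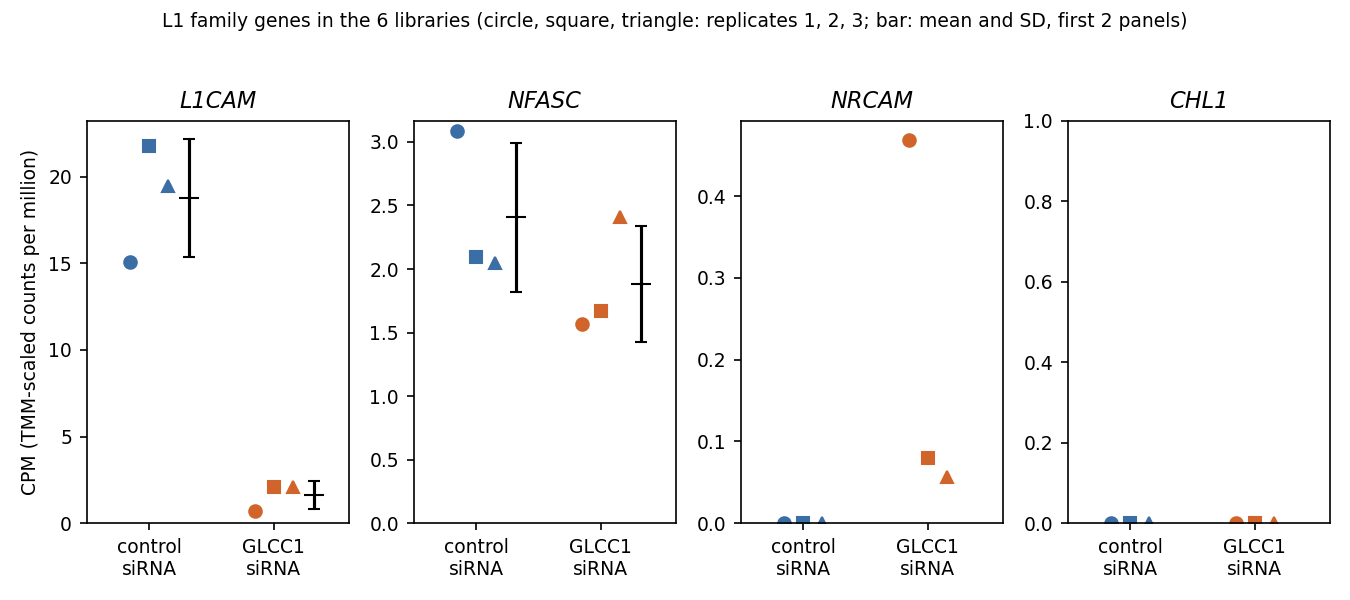
Level in TMM-scaled CPM (linear axes, each from 0 and with its own range) of the 4 L1 family genes in the control siRNA and GLCC1 siRNA libraries, 1 point for each library, with mean and SD (n = 3) for L1CAM and NFASC. L1CAM fell from 15.1 to 21.8 CPM to at most 2.07 CPM, the NFASC values of both conditions overlapped, NRCAM had counts in GLCC1 siRNA libraries alone and CHL1 was at 0 in all 6.

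NFASC encodes neurofascin, which anchors channel complexes at the axon initial segment and the nodes. It had 45, 38 and 34 read pairs in the control siRNA libraries and 30, 21 and 43 in the GLCC1 siRNA libraries. These were 3.09, 2.09 and 2.05 CPM against 1.56, 1.67 and 2.41 CPM. The conditions overlapped, with GLCC1 siRNA replicate 3 above 2 of the control libraries. The means were 2.41 ± 0.586 and 1.88 ± 0.458 CPM (SD, n = 3 each), and the log2 fold change was -0.34 (standard error 0.26). Its 95% interval ran from -0.84 to 0.17, and at this depth no difference of NFASC was detectable.

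NRCAM encodes the neuronal relative that takes part in axon guidance and node assembly. It had 0 read pairs in each control siRNA library and 9, 1 and 1 in the GLCC1 siRNA libraries. The 9 read pairs, 0.469 CPM, came from GLCC1 siRNA replicate 1, the library with the lowest L1CAM. In the other two the single read pairs were 0.0795 and 0.0559 CPM, under the level of 3 counts that a 0 allows. For a control library that limit, taken over the unscaled library total, lay between 0.158 and 0.200 CPM. The sum of the GLCC1 siRNA libraries was 11 read pairs, 0.222 CPM. Every GLCC1 siRNA library was above every control library, as for 22.3% of all genes tested, but the separation rested on 1 read pair in 2 of the libraries. NRCAM also passed the filter of 5 counts through the GLCC1 siRNA libraries alone. With control counts of 0, any read pair there gives such a separation, so it is only a description. No fold change of NRCAM is taken as a result, because its fitted value depends on the prior count.

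CHL1, the close homologue of L1, is known in neurons as a guidance and survival molecule. It had 0 read pairs in all 6 libraries. A limit of 3 counts over the unscaled library total is 0.158 to 0.251 CPM in a library. Its annotated antisense genes CHL1-AS1 and CHL1-AS2 were at 0 in all 6 as well. CHL1 therefore entered no test, and 3 of the 4 family genes passed the filter of 5 counts summed over a condition.

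Levels of different genes were compared per kilobase of the canonical transcript (RPKM computed from the counts). In the control siRNA libraries L1CAM was at 2.94, 4.24 and 3.79 RPKM, and the mean of NFASC was 0.233 RPKM. L1CAM was thus 15.7 times NFASC per length in the control libraries and 1.72 times in the GLCC1 siRNA libraries. With the union of all annotated exons as the length, these ratios were 22.8 and 2.50. In the control cells the order was L1CAM, NFASC and then NRCAM and CHL1, both at 0. In the GLCC1 siRNA cells, the RPKM values were 0.132, 0.402 and 0.403 for L1CAM and 0.151, 0.162 and 0.233 for NFASC, so these neighbours overlapped, and NRCAM followed at a mean of 0.0301 RPKM.

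Where L1CAM stood among falling genes depended on the abundance asked for. Among all 23074 genes tested it ranked 113, and 102 of the genes above it had no read pair in any GLCC1 siRNA library, so that their fitted values depend on the prior count. Among 14875 genes that averaged at least 1 CPM over the 6 libraries it ranked 2, after KRT13, an epithelial keratin, at -4.30. ALPP, a placental alkaline phosphatase, followed at -3.56. Among 10378 genes that averaged at least 10 CPM it ranked 1, with NCEH1 next at -3.04. L1CAM, at a mean of 10.2 CPM, lay just inside this floor and KRT13, at 9.81 CPM, just outside it.

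**Figure D2:**
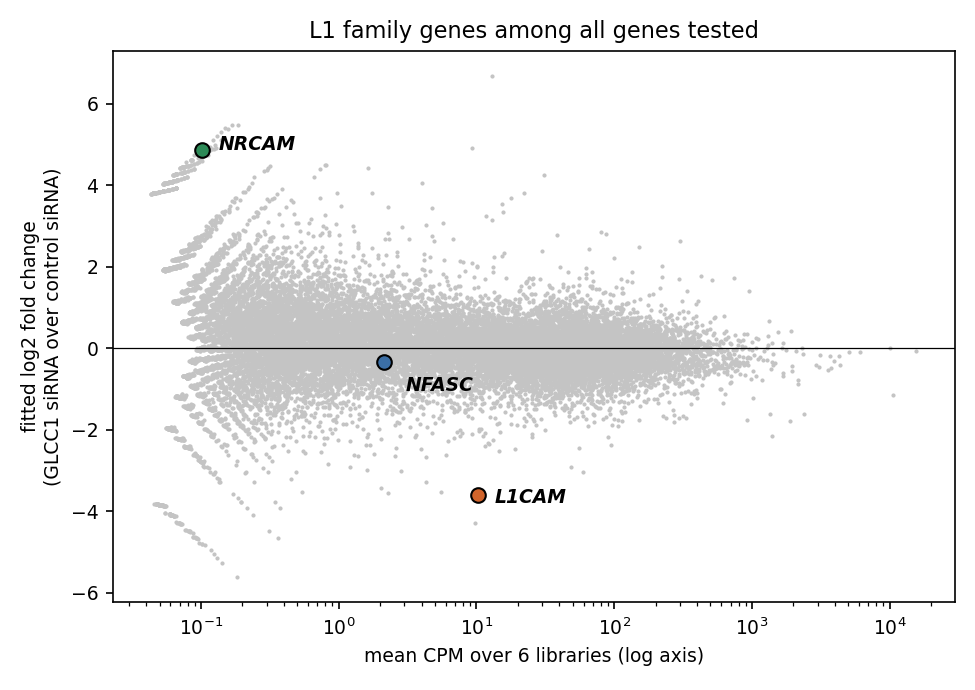
Mean CPM over the 6 libraries (log axis) against the fitted log2 fold change of GLCC1 siRNA over control siRNA for the 23074 genes tested (grey), with L1CAM, NFASC and NRCAM marked. L1CAM, at 10.2 CPM and -3.60, lies at the lower edge of the cloud, NFASC lies inside it at -0.34, and NRCAM lies among the genes with no count in 1 condition, whose fitted values depend on the prior count.

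The series as a whole changed broadly. Of the genes tested, 7293 (31.6%) passed an adjusted p of 0.05 in edgeR, 3864 lower (16.7%) and 3429 higher (14.9%) in the GLCC1 siRNA libraries. Scaled by library totals alone, the balance turned to 2797 lower and 4735 higher, and the median of all genes moved by 0.12 on the log2 scale. Between 11948790 and 19042516 read pairs per library were assigned to genes, with the lowest depth in GLCC1 siRNA replicate 2. That library stood apart from the other GLCC1 siRNA libraries, and 9920 genes passed without it. The targeted GLCC1 has no row in the files. FARP1, a guanine nucleotide exchange factor whose gene contains the GLCC1 locus, was at 111 ± 2.13 CPM in control and 64.8 ± 1.32 CPM in GLCC1 siRNA libraries (SD, n = 3 each), which is -0.77 on the log2 scale (standard error 0.08 and adjusted p = 9.2e-06, edgeR). Whether reads of GLCC1 were counted under FARP1 was not tested, so FARP1 does not settle the labels.

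Markers of colon epithelium were present, in cells that the labels name as the colorectal cancer line SW480. All 9 epithelial markers were at a mean of at least 1 CPM, and their summed level was 5757 to 6332 CPM in control and 2315 to 2781 CPM in GLCC1 siRNA libraries. Of the 9, 7 fell, among them KRT8 at -1.61, KRT18 at -1.82 and KRT19 at -1.34 (adjusted p of at most 5.3e-07, edgeR), keratins of simple epithelium. Among all genes that averaged at least 1 CPM, 24.8% fell. The other two markers did not pass, VIL1 at 0.21 and CDX2 at -0.24 (adjusted p = 0.067 and 0.055, edgeR). KRT8 and KRT18 have many processed pseudogenes, which could take some of their reads. The 3 keratins made up most of the summed level, KRT8 alone at means of 3584 and 1177 CPM, so the sum mainly follows them. The fall of L1CAM thus came with a lower summed marker level that was largely one of keratins. Any part of that change in the fall of L1CAM was not tested.

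Neurons are the cells in which the L1 family is best known. Their markers (10 genes) were summed at 2.19 to 2.35 CPM in control and 1.96 to 2.55 CPM in GLCC1 siRNA libraries. Most of that sum was SYP, at means of 1.44 and 1.41 CPM, and SNAP25, STMN2, ELAVL4 and NEFL were at 0 in all 6. Glial markers (6 genes) were at 45.2 to 45.6 against 80.4 to 88.4 CPM, nearly all of it MBP at means of 44.1 and 80.3 CPM, with S100B at 0. Fibroblast markers (6 genes) were at 16.1 to 19.9 against 10.7 to 13.3 CPM, with COL1A2, DCN and LUM at 0. Nearly all of that sum was COL1A1, at means of 13.4 and 7.38 CPM, and PDGFRB, at 4.56 and 4.83 CPM. Endothelial markers (5 genes) were at 0.542 to 1.03 against 0.318 to 1.45 CPM, nearly all of it VWF, with PECAM1, CDH5 and KDR at 0. Leukocyte markers (5 genes) were at 3.02 to 4.10 against 3.26 to 5.42 CPM, nearly all of it CD14 at means of 3.29 and 4.39 CPM, with PTPRC at 0.

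Whether L1CAM fell together with its chromosomal surroundings was looked at in the genes within 100 kb. The annotation lists 18 such genes, of which 15 have a row in the files under the annotated name and 13 were tested. In the GLCC1 siRNA libraries 5 of them fell, 2 rose and 6 did not pass, where 16.7% of all genes tested fell and 14.9% rose. Every neighbour that passed averaged at least 1 CPM, a level at which 24.8% of all genes fell and 20.3% rose. PDZD4, AVPR2, HCFC1-AS1 and MIR3202-1, among the 13, averaged less than 1 CPM, so these shares are not matched to all 13. The neighbours that fell were RENBP at -0.60, SSR4 at -0.58, NAA10 at -0.50, PLXNB3 at -0.41 and IDH3G at -0.38 (adjusted p between 0.0015 and 0.048, edgeR). SSR4 is part of the translocon-associated complex of the endoplasmic reticulum, NAA10 an N-terminal acetyltransferase and PLXNB3 a semaphorin receptor. SRPK3, a kinase of splicing factors, rose by 0.74, and ARHGAP4, a GTPase-activating protein, by 0.68 (adjusted p = 0.0014 and 0.049, edgeR).

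The nearest tested neighbour on each side of L1CAM was barely expressed. On the upstream side AVPR2, a vasopressin receptor gene whose start is 16.4 kb away, was at means of 0.380 and 0.142 CPM, a difference of -1.24 on the log2 scale (standard error 0.79). PDZD4, on the downstream side, was at 1.12 and 0.470 CPM, with -1.17 (standard error 0.47). No adjusted p of either passed (0.23 and 0.064, edgeR). The lowest of the 13 fitted changes was -1.66 (standard error 1.37), for MIR3202-1 at a mean of 0.0879 CPM.

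**Figure D3:**
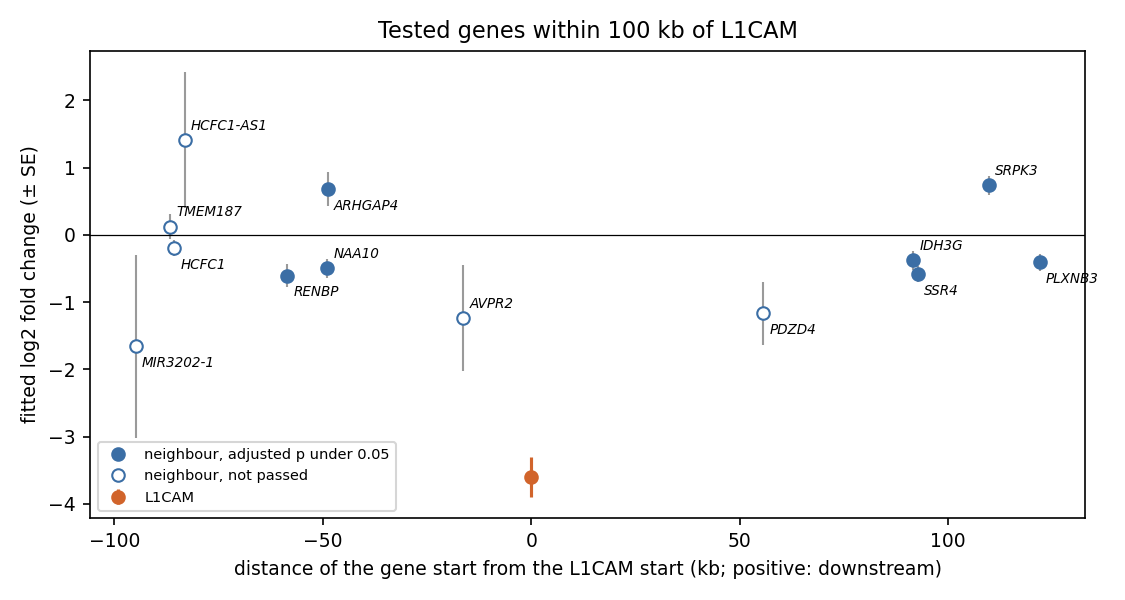
Fitted log2 fold change (± standard error) of L1CAM and of the 13 tested genes within 100 kb of it, against the distance of each gene's start from the L1CAM start in kb, positive on the downstream side. L1CAM lies at -3.60, whereas the 7 neighbours that passed an adjusted p of 0.05 (filled) lie between -0.60 and 0.74.

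Annotated genes also overlap L1CAM itself. GENCODE 44 places L1CAM-AS1 on the opposite strand and ENSG00000284987, a protein-coding gene without a symbol, on the same strand. Neither has a row in the files under that name, and older names were not searched. The strand setting of the counting is not given in the sources used here, so reads of L1CAM and of its antisense gene cannot be told apart. Around NFASC, 4 of the 8 annotated neighbours were tested and none passed. Around NRCAM, PNPLA8, a phospholipase gene, fell by 0.69 on the log2 scale (adjusted p = 0.0001, edgeR), and THAP5 had a log2 fold change of 0.09 (adjusted p = 0.69, edgeR). Around CHL1 none of 5 neighbours was tested.

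The proteins that L1 molecules meet outside the cell were read as a list of 18 genes, of which 15 were tested. In GLCC1 siRNA libraries 4 of the 15 fell, 4 rose and 7 did not pass, and the median log2 fold change was 0.14, where that of all genes tested was 0.03. Over all genes tested, 16.7% fell and 14.9% rose. At a mean of at least 1 CPM, 4 of 10 list genes fell and 4 rose, where 24.8% and 20.3% of all genes did. SEMA3A, a repulsive guidance cue, rose from 29.6 ± 2.02 to 79.2 ± 9.92 CPM (SD, n = 3 each), a log2 fold change of 1.41 (adjusted p = 6.4e-07, edgeR). NRP1, the semaphorin co-receptor that L1CAM binds, rose by 1.26 (adjusted p = 6.0e-07, edgeR), from 21.2 ± 0.453 to 50.8 ± 3.44 CPM. For both genes every GLCC1 siRNA library was above every control library, as for 22.3% of all genes tested.

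Among the receptors of the list, ITGA5, the alpha chain of a fibronectin receptor, fell by 0.80 on the log2 scale and EGFR, the epidermal growth factor receptor, fell by 0.64 (adjusted p = 5.6e-05 and 2.4e-05, edgeR). The most abundant gene of the list, the integrin beta chain ITGB1, was at 391 ± 7.03 and 444 ± 44.1 CPM, a log2 fold change of 0.18 (adjusted p = 0.12, edgeR). CNTN1, a contactin, and CD24, a small surface glycoprotein, were at 0 in all 6 libraries. CD24 has near-identical copies in the genome, so its value is uncertain.

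The adaptors that join the L1 tail to the cytoskeleton and the endocytic machinery were a list of 23 genes, of which 22 were tested. Of these 5 fell, 4 rose and 13 did not pass, with a median log2 fold change of 0.11. At a mean of at least 1 CPM, 5 of 20 list genes fell and 4 rose, where 24.8% and 20.3% of all genes did. SPTB, the beta spectrin best known from red cells, fell from 15.7 ± 0.711 to 5.56 ± 0.694 CPM, a log2 fold change of -1.50 (adjusted p = 2.4e-06, edgeR). SPTBN1, the general beta spectrin and the most abundant gene of the list, fell from 1003 ± 34.2 to 645 ± 36.4 CPM (-0.64, adjusted p = 2.9e-05, edgeR). RDX, encoding radixin, which links membrane proteins to actin, had a log2 fold change of -0.94 (adjusted p = 0.00011, edgeR).

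Of the 3 ankyrins, which bind the site printed above, 1 passed the test, where 31.6% of all genes tested did. ANK3 rose by 0.56 (adjusted p = 0.00051, edgeR), from 27.8 to 41.1 CPM. ANK2, at 1.50 and 1.22 CPM, had a log2 fold change of -0.32 (adjusted p = 0.42, edgeR), and ANK1, at 0.718 and 0.895 CPM, one of 0.36 (adjusted p = 0.58, edgeR). ANK1, ANK2 and ANK3 are named for this site, after their values were seen. DLG3, a scaffold protein of membrane junctions, rose by 0.58 (adjusted p = 0.00014, edgeR).

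The proteases and inhibitors that govern shedding and further cleavage of L1 proteins were a list of 17 genes, all tested. Of these 4 fell, 3 rose and 10 did not pass, with a median of -0.09. All 17 averaged at least 1 CPM, a level at which 24.8% of all genes fell and 20.3% rose. TIMP3, an inhibitor of ADAM proteases, fell from 20.8 ± 1.62 to 8.95 ± 0.317 CPM, a log2 fold change of -1.21 (adjusted p = 4.0e-06, edgeR). ADAM17, a sheddase, had a log2 fold change of -0.67 (adjusted p = 8.2e-05, edgeR). ADAM10, the main sheddase of L1CAM and the most abundant gene of the list, was at 212 ± 2.78 and 218 ± 29.4 CPM, with 0.04 (adjusted p = 0.79, edgeR). Of the gamma-secretase subunits, PSEN2 had a log2 fold change of -0.53 (adjusted p = 0.0021, edgeR), and APH1B one of 0.59 (adjusted p = 0.044, edgeR) at a mean of 2.78 CPM. APH1A, the more abundant relative of APH1B, named after its value was seen, had -0.27 (adjusted p = 0.036, edgeR). DESeq2 gave APH1B an adjusted p of 0.11.

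Transcription factors and upstream signals linked to L1CAM were a list of 17 genes, of which 16 were tested. Of these 7 fell, 4 rose and 5 did not pass, with a median of -0.19. All 16 averaged at least 1 CPM, a level at which 24.8% of all genes fell and 20.3% rose. ZEB1, a repressor of epithelial genes, rose from 25.8 ± 0.478 to 47.2 ± 4.75 CPM, a log2 fold change of 0.87 (adjusted p = 2.2e-05, edgeR). LEF1, a partner of beta-catenin, rose by 0.64 (adjusted p = 0.0041, edgeR). TGFBR2, a receptor of TGF-beta, had a log2 fold change of -0.68 and KLF4, a factor of epithelial differentiation, one of -0.61 (adjusted p = 1.2e-05 and 0.00022, edgeR). CTNNB1, encoding beta-catenin and the most abundant gene of the list, had -0.19 (adjusted p = 0.069, edgeR).

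REST, the repressor of neuronal genes that acts on an element within L1CAM, rose by 0.47 (standard error 0.11, adjusted p = 0.0035, edgeR), from 79.8 ± 2.13 to 111 ± 17.2 CPM. It is named for that role, after its value was seen.

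Genes linked downstream of L1CAM in colon cancer were a list of 11, of which 10 were tested. Of these 4 fell, 1 rose and 5 did not pass, with a median of -0.53. Among the 9 that averaged 1 CPM or more, 4 fell and 1 rose, where 24.8% and 20.3% of all such genes did. The median of these 9 was -0.38, where that of all genes at this level was -0.03. Scaled by library totals alone, the median of the 10 was -0.41, where that of all genes tested was 0.15. Whether the list moved as a set was not tested. ASS1, an enzyme of arginine synthesis, had a log2 fold change of -0.95, CLU, encoding the chaperone clusterin, one of -0.92, and CTSD, encoding the lysosomal protease cathepsin D, one of -0.76 (adjusted p of at most 0.00011, edgeR). LGR5, the receptor that marks intestinal stem cells, rose from 31.1 ± 1.10 to 62.0 ± 2.16 CPM, a log2 fold change of 0.99 (adjusted p = 2.5e-06, edgeR). CTSB, encoding cathepsin B and the most abundant gene of the list, had 0.04 (adjusted p = 0.80, edgeR).

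Other adhesion molecules with immunoglobulin domains, outside the L1 family, were a list of 62 genes, of which 42 were tested and 15 had no count in any library. Of the 42, 9 fell, 5 rose and 28 did not pass, with a median of -0.21. Among the 28 genes of the list that averaged at least 1 CPM, 7 fell and 4 rose, where 24.8% and 20.3% of all genes at that level did. AXL, a receptor kinase, fell from 49.4 ± 4.31 to 18.5 ± 1.52 CPM, a log2 fold change of -1.41 (adjusted p = 5.8e-07, edgeR). NPTN, encoding neuroplastin, fell from 129 ± 2.64 to 62.1 ± 1.30 CPM (-1.05, adjusted p = 6.2e-07, edgeR). CEACAM6, a carcinoembryonic antigen relative with similar paralogs that could share its reads, fell from 2.16 ± 0.583 to 0.635 ± 0.0681 CPM (-1.72, adjusted p = 0.00074, edgeR). BSG, encoding basigin and the most abundant gene of the list, had -0.24 (adjusted p = 0.097, edgeR).

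Over the 6 lists, 33 of 122 tested genes fell (27.0%) and 21 rose (17.2%), against 16.7% and 14.9% of all genes tested. The list genes were more abundant than most. Of the 100 with a mean of at least 1 CPM, 31 fell and 20 rose, where 24.8% and 20.3% of all genes at that level did. With library totals as the only normalization, 28 list genes fell and 31 rose, where 2797 and 4735 of all 23074 genes did. Without GLCC1 siRNA replicate 2, 42 fell and 31 rose. Over all genes, 9920 passed in that setting, against 7293 with all libraries.

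**Figure D4:**
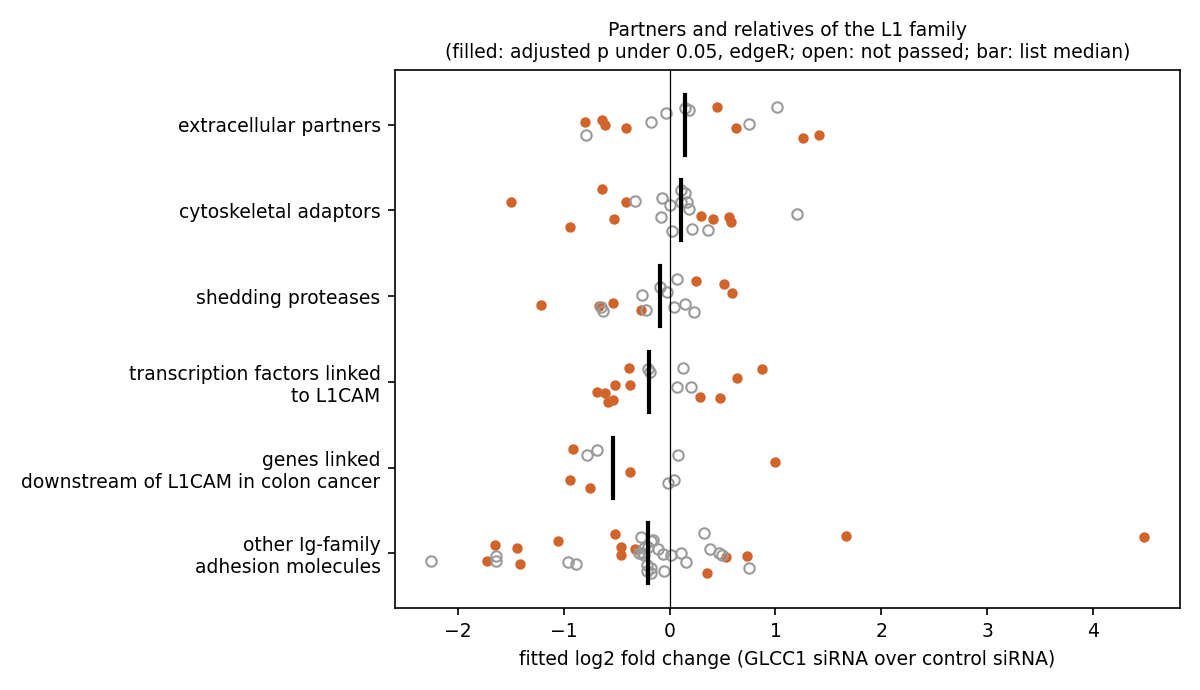
Fitted log2 fold change of GLCC1 siRNA over control siRNA for the tested genes of 6 lists of L1 partners and relatives, 1 point for each gene, filled where the adjusted p of edgeR passed 0.05, with the median of each list as a bar. The medians lie between -0.53 and 0.14, and both directions are present in every list.

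Genes with a pattern like that of L1CAM were sought among 10377 genes that averaged at least 10 CPM. Likeness was the root mean square difference over the 6 libraries of log2 CPM, after each gene was centred on its control mean. Among the 5 closest were NCEH1, a cholesteryl ester hydrolase (0.57), GAL, encoding the neuropeptide galanin (0.64), TAF13, a subunit of the general factor TFIID (0.93), and CLIC3, a chloride channel protein (0.93). Their fitted log2 fold changes were -3.04, -2.91, -2.48 and -2.53. For NFASC the closest were MARCH2 (0.16), RRP7A (0.17) and RP11-75L1.2 (0.19).

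A short interfering RNA can also act on other transcripts through the seed at the start of its guide strand, so the transcripts of the family were searched for its words. The study designed more than 1 siRNA against GLCC1 and does not say which was sequenced. The seed words of its other siRNA were not searched. The words were taken from the target of siRNA 1, printed here on the plus strand of hg19, with capitals for the 8 bases that pair with the start of the guide strand.
GLCC1 siRNA 1 target, chr13:99049528-99049546: ggaagagcaacACCTTGAA
The words searched were ACCTTGA, complementary to guide bases 2 to 8, and CCTTGAA, complementary to guide bases 1 to 7. They overlap by 6 bases and were sought on the sense strand of the transcripts.

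The canonical 3′ UTR of L1CAM, 1147 bases long, held neither word, and 1 of 16 annotated L1CAM transcripts held a word somewhere. The canonical 3′ UTRs of CHL1 (3706 bases) and NRCAM (2261 bases) held neither word, while the coding sequence of NRCAM held 2 matches. That of NFASC, the longest at 6283 bases, held CCTTGAA at 2 places. The matches that could be read in 1 exon are shown with the word in capitals.
NFASC 3′ UTR, chr1:204987051-204987073, plus strand: cctgcaagCCTTGAAgcctccag
NFASC 3′ UTR, chr1:204988989-204989011, plus strand: cagttcctCCTTGAAtacctctt
NRCAM coding sequence, chr7:107848030-107848052, minus strand: aggatgggACCTTGAtctgcaga
Of 17700 protein-coding genes with an annotated 3′ UTR, 18.9% held either word. A match is a description of the letters and not of a site in use.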

How the data were processed

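RNA-seq of 6 libraries was used, 3 labelled control siRNA and 3 labelled GLCC1 siRNA. The authors deposited unnormalized counts, the number of read pairs assigned to each gene symbol, in 1 file per library. By the methods, paired-end reads were mapped to hg19 with TopHat 2.0.11 and counted with HTSeq in union mode, so a pair that touches more than 1 gene is assigned to none. HTSeq tallies of reads given to no feature were 11.2% to 11.5% of pairs in control and 12.5% to 14.2% in GLCC1 siRNA libraries, and ambiguous pairs were 8.19% to 8.89%. They were left out of library sizes and tests.

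A gene was kept where the counts of either condition summed to 5 or more, which is the filter of the study. Counts were scaled with TMM and compared with the robust quasi-likelihood test of edgeR 4.0.16 under R 4.3.3, with Benjamini-Hochberg adjustment over all 23074 genes tested. Prior counts were 0.125 for fitted fold changes and 2 for log2 CPM. CPM values are TMM-scaled, except the limits of 3 counts, which use library totals. Intervals of counts are exact Poisson (95%). Levels per length and positions use GENCODE 44 mapped to hg19. Libraries were checked for copies, and pairs of 1 condition differed by a chi-square per degree of freedom of 1.93 to 19.0, so none was a copy.

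The procedure was tested on simulated data for the same contrast. Of 200 genes changed among 22201, edgeR recovered 195 and called 203 in all, 8 of them unchanged, and DESeq2 1.42.0 recovered 195. The changed genes averaged at least 50 counts and all changed by the same factor, up or down. They were far fewer than the 7293 genes called in the data. The simulation thus does not cover genes with lower counts, such as NFASC and NRCAM, or a change as broad as that of the series.

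The family and the lists were chosen with earlier results of these data known. The lists are extracellular partners, cytoskeletal adaptors, shedding proteases, transcription factors linked to L1CAM, genes linked downstream of L1CAM in colon cancer and other Ig-family adhesion molecules, with 6 lists of cell markers. Named were the members, FARP1, genes within 100 kb of a member, the genes most like a member, the most abundant gene of each list and up to 4 genes of each list with the largest change among those called at a mean of at least 1 CPM. Genes named outside this rule are said to be so. Some genes that the rule picks are not reported here. Alternatives were DESeq2, other scalings and filters, the replicate number as a block, the conditions of the library names, the prior count, lists kept to 1 CPM and each library left out in turn.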

Additional observations from a re-analysis of the deposited data

How the results depend on the processing

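With the conditions of the library names every sign turned, to 3.60 for L1CAM, 0.34 for NFASC and -4.87 for NRCAM, and 33 list genes were then higher and 21 lower. Fitted values of NRCAM are given only to show how they depend on the setting. With a prior count of 2 its fitted value was 1.46 where it had been 4.87, since its control counts are all 0. It gave no value with 10 counts asked in every library or without GLCC1 siRNA replicate 1, and CHL1 gave none in any setting. Leaving out each library in turn, the log2 fold change ranged from -3.90 to -3.18 for L1CAM, from -0.56 to -0.13 for NFASC and from 4.84 to 5.31 for NRCAM. Between 5221 and 9920 genes were called, with 26 to 42 list genes lower and 15 to 31 higher. The other alternatives moved L1CAM to between -3.60 and -3.48 and kept its sign. DESeq2 called 6683 genes. The numbers in the titles are not said to mark a shared batch. Same-numbered libraries had correlations of deviations of -0.13, -0.25 and -0.0026, and control replicate 1 with GLCC1 siRNA replicate 2 had 0.22. So few libraries cannot decide whether a batch was shared. Same-numbered libraries were not taken as pairs. With the replicate block 6522 genes were called, with 33 list genes lower and 16 higher, and the log2 fold changes were -3.60 for L1CAM, -0.35 for NFASC and 4.65 for NRCAM. Among 25 called genes named from the lists, FARP1 included, APH1B was lost under DESeq2, the block and 5 of the 6 settings without a library, and CEACAM6 was among those removed by the filter of 10 counts. Depth limits the NRCAM and CHL1 values, which rest on at most 9 counts in a library.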

Other observations

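CNTN5, a contactin with immunoglobulin domains like those of the L1 family, was too low in the mean for the rule on named genes and was chosen after its values were seen. It had 2, 1 and 0 read pairs in the control siRNA libraries and 32, 24 and 19 in the GLCC1 siRNA libraries. At 0.137, 0.0551 and 0 CPM against 1.67, 1.91 and 1.06 CPM, it passed the filter of 5 counts through the GLCC1 siRNA libraries alone, so no test of it is given. Its relatives CNTN1, CNTN3, CNTN4 and CNTN6 were at 0 in all 6 libraries, and CNTN2, at 0.277 ± 0.0954 and 0.256 ± 0.234 CPM (SD, n = 3 each), had an adjusted p of 0.98 from edgeR.

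MCAM and PVRL4, adhesion molecules known from endothelial and epithelial cells, were also below a mean of 1 CPM and were chosen after their values were seen. MCAM had 15, 18 and 8 read pairs in control and 4, 1 and 8 in GLCC1 siRNA libraries (log2 fold change -1.65, adjusted p = 0.03, edgeR), and DESeq2 gave it an adjusted p of 0.059. PVRL4 had 18, 28 and 25 against 14, 6 and 6 (log2 fold change -1.45, adjusted p = 0.0058, edgeR).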
